A study of Mus musculus with 12 samples.

Results

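Glycolysis and hypoxia response genes were described in fluorescent cells labelled as cortical interneurons of 2 origins, the medial ganglionic eminence (MGE) and the caudal ganglionic eminence (CGE). The list held 41 genes, which were looked up by gene symbol among the 11359 symbols of the array table. Of these, 36 were present. Gpi1, Eno1, Slc16a3 and P4ha2 were not found under their own symbol, and Bnip3l was read only by 3 probe sets that it shares with the pseudogene Bnip3l-ps. Each gene was read by its probe set with the highest mean over the 12 arrays. A probe set is a group of short oligonucleotides on the array that detects 1 or more transcripts. In all, 33 members were tested. Hk2 and Ndrg1 were too dim, and Gapdh was present only as the manufacturer's control.

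Fluorescent cells were purified by FACS from dissociated embryonic mouse cortex, and their amplified RNA was hybridised to Affymetrix Mouse430_2 arrays, 3 per group. The reporters were R26R-YFP fl/fl with Nkx2-1-Cre Tg for MGE cells, taken at E18.5 and E14.5, and Dlx1-lox-Venus-lox with Nkx2-1-Cre for CGE cells, taken at E18.5 and E16.5. All groups therefore carried Nkx2-1-Cre, on a mixed C57BL/6 and CBA background, in mice of both sexes, and samples were pooled. The labels call the arrays of a group biological replicas without saying which embryos each pooled, so the p-values measure only the spread between these arrays. Nkx2-1-Cre acts in progenitors of the MGE and the YFP stays on in all of their descendants, whatever cell type these become, while the Dlx1-driven Venus is lost where Cre acts and remains in cells of the caudal and lateral eminences. The early days differ between the lineages, so that lineage, reporter and day cannot be told apart when MGE cells at E14.5 are set against CGE cells at E16.5, and lineage and reporter cannot be told apart at E18.5.

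Glycolysis splits glucose into pyruvate in the cytosol. Glucose enters through transporters of the Slc2a family, and pyruvate is either reduced to lactate by lactate dehydrogenase or passed to mitochondria through pyruvate dehydrogenase, which the Pdk kinases switch off. When oxygen is short, the prolyl hydroxylases Egln1 and Egln3 no longer mark the transcription factor Hif1a for destruction, and the factor then binds short DNA elements at genes for glucose transport, glycolysis and survival. Many of these genes are also used at normal oxygen in the developing brain, and their isoforms differ between neurons and glia.

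Among marker genes tested, 4 of 4 for MGE origin were called higher in MGE cells at both stages, and 7 of 7 for CGE origin were called lower at the early days and 6 of 7 at E18.5. The MGE arrays at E18.5 stood apart in another respect. Markers of oligodendrocyte precursors, glial cells that the MGE also produces, were called higher on them for 9 of 9 tested genes, against both CGE cells at E18.5 and MGE cells at E14.5, and 7 of 9 were also higher in MGE E14.5 than in CGE E16.5. The summed linear level of that list was 18430 to 29350 in MGE E18.5, 378.6 to 499 in CGE E18.5, 1300 to 1603 in MGE E14.5 and 326.6 to 399.4 in CGE E16.5. In CGE cells no array exceeded 6.65 on the log2 scale for any of the 9, which is below the filter level. Olig2, Sox10, Nkx2-2, Gpr17 and Bcan were above that level on the MGE E18.5 arrays alone. They passed the filter through the group in which they were high, so their calls there were partly set by the filter. Their other values are near background. Pdgfra, Olig1, Cspg4 and Lhfpl3 were also above that level on MGE E14.5 arrays. Of 8 tested markers of radial glia and astrocytes, 6 were higher in MGE E18.5 in the same comparisons, with summed levels of 21150 to 25360 in MGE E18.5, 11070 to 15110 in CGE E18.5, 6507 to 9636 in MGE E14.5 and 6462 to 9743 in CGE E16.5. In CGE maturation 3 of the 8 were higher and 1 was lower. Pax6, of the same list, was called lower at E18.5, at 5.91, 5.67 and 5.09 in MGE E18.5 against 10.38, 11.22 and 10.83 in CGE E18.5. Cell cycle genes were higher with age for 8 of 13 in MGE and 12 of 13 in CGE cells, and 4 of 13 were lower in MGE E18.5 than in CGE E18.5. Stress response genes were higher for 2 of 12 in MGE and 4 of 12 in CGE maturation, with summed levels of 33260 to 42200 in MGE E18.5, 33540 to 50290 in CGE E18.5, 26280 to 34050 in MGE E14.5 and 25900 to 28580 in CGE E16.5. Both tested microglial markers were called higher in both maturation comparisons, with summed levels of 218.4 to 326.3 in MGE E18.5, 246 to 517 in CGE E18.5, 43.08 to 64.42 in MGE E14.5 and 68.57 to 148.1 in CGE E16.5. In MGE maturation Rgs5, the 1 tested vascular marker, and 1 of 2 erythroid genes were also called higher. For Rgs5 and both microglial genes no array of E14.5 or E16.5 was above the filter level. They passed the filter through the E18.5 arrays, so their calls were partly set by the filter and their earlier values are near background. The oligodendrocyte precursor and radial glia lists had their highest sums in MGE E18.5. The radial glia, cell cycle, stress and microglial lists all held genes called higher in CGE maturation too, and the oligodendrocyte precursor list held 1 of 9. What part any of these lists had in the member results was not tested. In sorted bulk RNA, fewer cells of a type and less RNA per cell cannot be told apart.

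**Figure D1:**
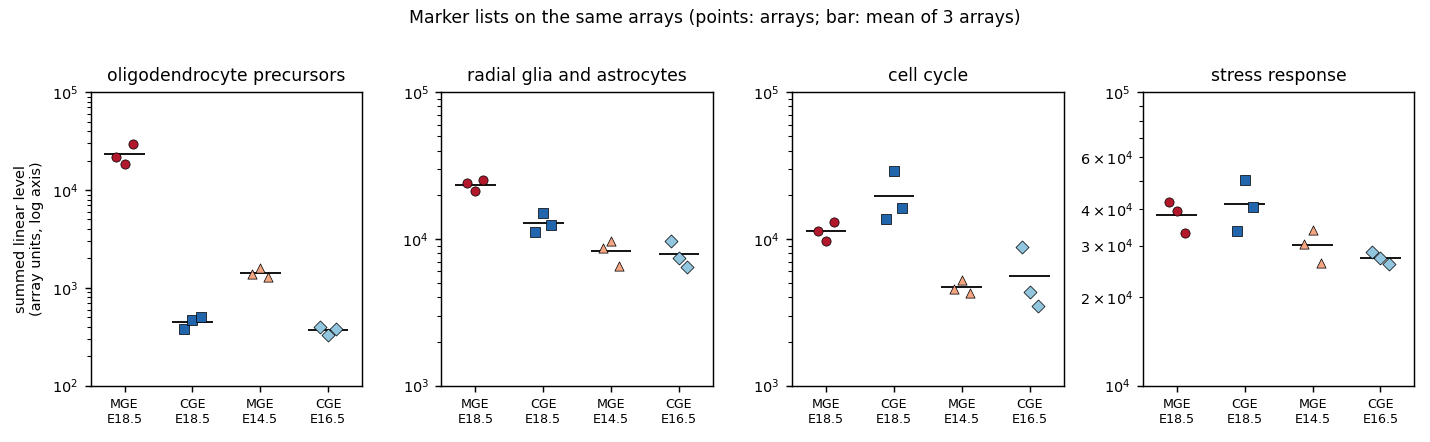
Summed linear level (y axis, array units, log axis) of the probe sets of 4 marker lists on each of the 12 arrays, by group (x axis). Points are arrays and bars are means of 3. The oligodendrocyte precursor list lies at 18430 to 29350 in MGE E18.5 and at no more than 1603 on any other array.

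A member was called when limma gave an adjusted p under 0.05 over all 8795 genes tested. Each difference is a log2 value with its SE, from 3 arrays per group. Lineage differences subtract the CGE from the MGE mean, late at E18.5 and early at the first day sampled, and maturation differences subtract the first day from E18.5. Of the 33 members, 13 were called in at least 1 of the 4 pairwise comparisons, which is 39.4% beside 38.5% of all genes. The set as a whole was thus called about as often as genes in general. The group in which members peaked was less even. The highest of the 4 group means lay in MGE E18.5 for 18 of the 33 members (54.5%, against 22.5% of all genes) and in CGE E18.5 for 2 (6.06%, against 22.3%). The members were chosen with earlier results of these data known. Shares set beside all genes, here and below, therefore describe the list and are no test of it. Within CGE E18.5, replicate 1 was the highest of its 3 arrays for 23 of 33 members, or 69.7%, where it was highest for 41.5% of all genes. Results that change without that array are given with it left out.

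**Figure D2:**
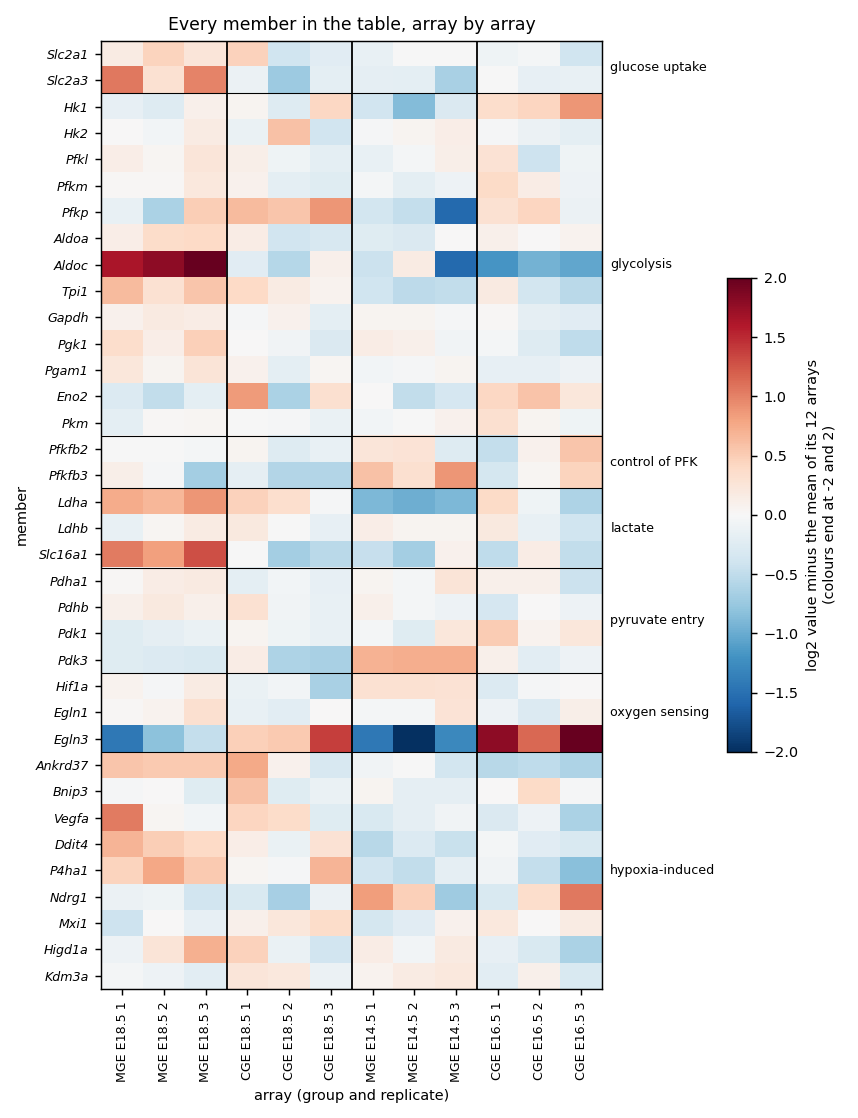
Each row is 1 of the 36 members in the table and each column 1 array, grouped as MGE E18.5, CGE E18.5, MGE E14.5 and CGE E16.5. Colour gives the log2 value minus the mean of that member over the 12 arrays. Aldoc, Slc16a1, Slc2a3 and Ldha are highest in MGE E18.5, and Egln3 is lowest in both MGE groups.

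Between E14.5 and E18.5, MGE cells raised 9 members and lowered 2. The 9 were 27.3% of the tested members, beside 11.4% of all genes called higher, and the 2 were 6.06%, beside 9.77% called lower. The median member difference was 0.19, and the median of all genes was -0.06. Those that rose were the glucose transporter Slc2a3, the enzymes Aldoc, Aldoa and Tpi1, lactate dehydrogenase Ldha, and the lactate carrier Slc16a1. The hypoxia-induced genes Ddit4, P4ha1 and Ankrd37 rose as well. Pdk3 and Pfkfb3 fell. With a difference of at least 1 in size, 4 members were called in MGE maturation (8.07% of all genes), 4 in the late lineage comparison (9.64%), 2 in the early one (4.86%), 0 in CGE maturation (4.09%) and 3 in the contrast between the maturation differences (6.48%).

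The same count in CGE cells between E16.5 and E18.5 was 0 higher and 0 lower with limma, beside 4.49% and 6.37% of all genes. At an unadjusted p under 0.05, 7 of 33 members passed, 4 higher and 3 lower, which is 21.2% beside 26.5% of all genes. No CGE member difference exceeded 0.92 in size. Closest to a call were Ankrd37 at 0.73 ± 0.21 (adjusted p = 0.0504) and P4ha1 at 0.70 ± 0.22 (adjusted p = 0.0655). Without CGE E16.5 replicate 1, Tpi1 and P4ha1 were called higher, P4ha1 at 0.89 (adjusted p = 0.0309). Without CGE E18.5 replicate 1, Pdk3 was called lower. Without CGE E18.5 replicate 3, Ankrd37 was called higher at 0.97 (adjusted p = 0.0113) and Egln3 lower, and without MGE E14.5 replicate 3 Aldoc was called higher. The interval between days is shorter in CGE than in MGE cells, so the counts are not of equal spans.

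Whether the change with age differed between the lineages was tested directly, by subtracting the CGE maturation difference from that of MGE. The MGE change covers E14.5 to E18.5 and the CGE change only E16.5 to E18.5. Lineage, reporter and span of days therefore cannot be told apart in this contrast. It was called higher for 3 members, Slc2a3, Ldha and Slc16a1, and lower for 0 (2 of 33 were lower at an unadjusted p under 0.05). These are 9.09% of the members, beside 6.77% of all genes called higher and 1.88% called lower. Without MGE E18.5 replicate 3 the count was 1, Ldha alone, and without CGE E18.5 replicate 3 it was 6, with Hk1, Egln3 and Ddit4 added. It was 4 without CGE E16.5 replicate 2 or MGE E18.5 replicate 1, both of which added Egln3, and 4 without CGE E18.5 replicate 1, which added Aldoa. Of the 3 genes, Slc16a1 was lost without MGE E14.5 replicate 1 or 2. All 11 tested glycolytic enzymes had a difference above 0 in this contrast, from 0.07 for Pgam1 to 1.68 for Aldoc, although none was called (Aldoc adjusted p = 0.0592, and 2.07 with adjusted p = 0.0139 without MGE E14.5 replicate 2). The median of all genes was 0.02.

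**Figure D3:**
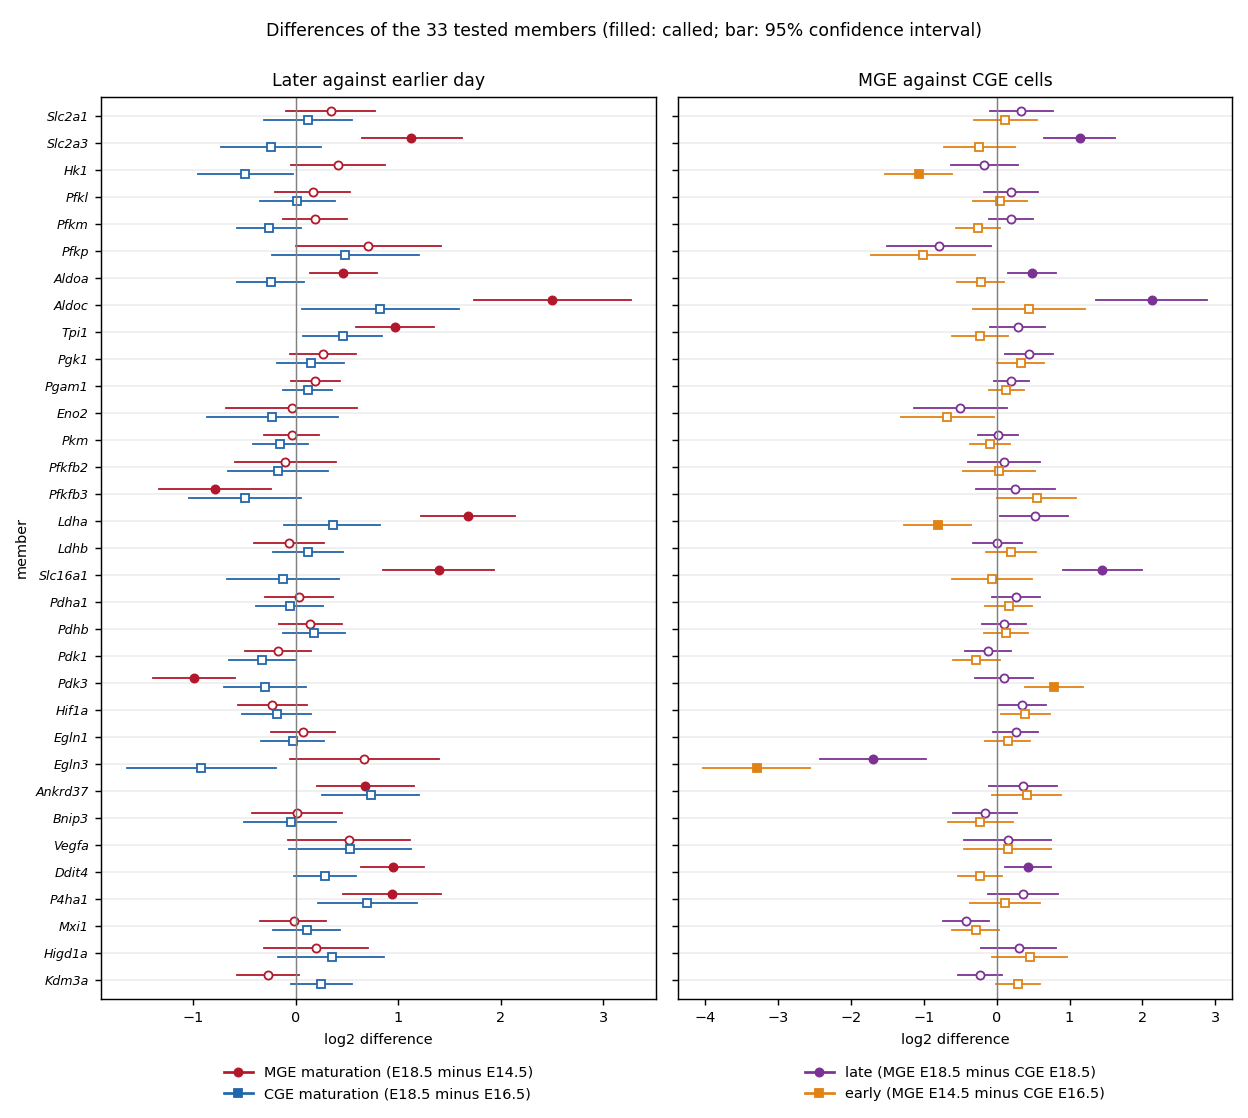
Log2 differences (x axes) of the 33 tested members (y axis), with 95% confidence intervals, for MGE and CGE maturation (left) and the late and early lineage comparisons (right). Filled symbols are called. MGE maturation has 11 filled symbols and CGE maturation 0.

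Glucose uptake was read by both of its members. Slc2a3, the high-affinity glucose transporter best known from neurons, measured 10.9, 10.15 and 10.84 in MGE E18.5 (log2 values of the 3 arrays), 9.73, 9.11 and 9.64 in CGE E18.5, 9.66, 9.65 and 9.19 in MGE E14.5 and 9.84, 9.68 and 9.69 in CGE E16.5. All MGE arrays at E18.5 lay above the 9 others, with replicate 2 the closest to them. It was higher in MGE E18.5 by 1.14 ± 0.22 than in CGE E18.5 (adjusted p = 0.00314) and by 1.13 ± 0.22 than in MGE E14.5 (adjusted p = 0.00402), and both calls held in each of the 23 other settings that tested it. Its second probe set gave 1.01 and 1.03 for the same comparisons. The main probe set carries a suffix for probes that may also match other transcripts, and Slc2a3 was not tested with only plain-suffix probe sets. In CGE cells it was -0.24 ± 0.22 between the days, and the lineages differed in this change by 1.37 ± 0.32 (adjusted p = 0.0175). Without MGE E18.5 replicate 3 that difference was 1.27 with an adjusted p of 0.0507. Slc2a1, the transporter of the blood-brain barrier and of glia, was 0.34 ± 0.20 in MGE maturation and 0.34 ± 0.20 in the late lineage comparison, without a call in either, and its 95% interval in MGE maturation ran from -0.09 to 0.77. Its highest array of all, 9.98, was CGE E18.5 replicate 1. With that array left out, Slc2a1 was called higher in the late lineage comparison.

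Of the glycolytic enzymes, 11 were tested, and 3 rose in MGE maturation. Aldoc, the aldolase of brain that is enriched in astrocytes and in some cerebellar neurons, read 8.81, 8.96 and 9.45 in MGE E18.5, 6.95, 6.61 and 7.28 in CGE E18.5, 6.75, 7.34 and 5.62 in MGE E14.5 and 6.0, 6.23 and 6.14 in CGE E16.5. The MGE arrays at E18.5 stood clear of all others, and the MGE arrays at E14.5 were widely spread. Aldoc was above the filter level, the 40th percentile of an array, on only 5 arrays, 3 of them MGE E18.5, so it passed the filter through the group in which it was high, and its lower values are near background. Bounds were taken from group means with each dimmer array raised to at least its filter level, and leave out the spread between arrays. The Aldoc mean was at least 3.68-fold higher in MGE E18.5 than in MGE E14.5 (measured 2.5 ± 0.35, adjusted p = 0.00035). At E18.5 it was at least 3.72-fold higher in MGE than in CGE cells (measured 2.13 ± 0.35, adjusted p = 0.000982). Both calls held in each of the 23 other settings that tested Aldoc. In CGE maturation it was 0.82 ± 0.35 (adjusted p = 0.159). Without MGE E14.5 replicate 3, its lowest array, Aldoc was also called higher in CGE maturation and in the early lineage comparison. The other aldolase, Aldoa, differed by 0.46 ± 0.15 in MGE maturation and by 0.48 ± 0.15 in the late lineage comparison. The first call was lost in 13 of 23 settings, among them leaving out any 1 array of MGE E18.5 or CGE E16.5, or MGE E14.5 replicate 1 or 2 (adjusted p = 0.0507 to 0.154). The second was lost in 7 of 23, among them leaving out replicate 2 or 3 of MGE E18.5 or of CGE E18.5, or MGE E14.5 replicate 1 (adjusted p = 0.0525 to 0.114), and the arrays of its 2 groups overlapped. All 4 Aldoa probe sets carry the suffix for probes that may also match other transcripts.

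Tpi1, triose phosphate isomerase, had group means of 10.01 ± 0.17 in MGE E18.5, 9.72 ± 0.17 in CGE E18.5, 9.04 ± 0.06 in MGE E14.5 and 9.27 ± 0.37 in CGE E16.5 (SD, n = 3). It rose by 0.97 ± 0.17 in MGE maturation (adjusted p = 0.00221), and its 2 other probe sets rose by 0.85 and 0.91. In CGE maturation it was 0.46 ± 0.17 and not called, and the lineages did not differ detectably in this change (0.51 ± 0.25, adjusted p = 0.25).

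Hk1, the main brain hexokinase, which traps glucose in the cell by phosphorylating it, set the early groups apart. It measured 7.87, 7.38 and 7.96 in MGE E14.5 and 8.61, 8.68 and 9.13 in CGE E16.5, with 8.09, 7.99 and 8.36 in MGE E18.5 and 8.3, 8.0 and 8.66 in CGE E18.5. The 2 early groups did not overlap, whereas those of E18.5 did. Hk1 was lower in MGE cells at the early days, with a difference of -1.07 ± 0.21 (adjusted p = 0.0068). That call held in each of the 23 other settings that tested Hk1, and its second probe set gave -1.17. At E18.5 the difference was -0.17 ± 0.21. The change of 0.90 ± 0.30 between these differences was not called (adjusted p = 0.0908), except with the replicate block and without CGE E18.5 replicate 3 (1.07, adjusted p = 0.0455). Hexokinase Hk2 stayed between 5.96 and 6.92 on all arrays and was not tested.

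Phosphofructokinase, the controlled step of glycolysis, has 3 isoforms in the list. Pfkl and Pfkm differed by at most 0.26 in size in any pairwise comparison and were not called. Pfkp, the platelet form, which brain also makes, was -1.01 ± 0.33 in the early lineage comparison (adjusted p = 0.0789) and -0.79 ± 0.33 in the late (adjusted p = 0.105), and was called in the late one without MGE E14.5 replicate 3 or MGE E18.5 replicate 3. Its probe sets gave different answers. The others gave -1.28 and -1.15 at the early days, both called, and -0.54 and -1.94 at E18.5, of which the second was called. In MGE maturation the same 2 gave 1.31, called, and -0.13. Of the steps after triose phosphate isomerase, Pgk1, Pgam1, Pkm and Eno2 gave no call. Pgk1, phosphoglycerate kinase, was 0.44 ± 0.15 in the late lineage comparison (adjusted p = 0.0508), and was called in 9 of 24 settings, among them without CGE E16.5 replicate 1 or 3, MGE E18.5 replicate 2 or CGE E18.5 replicate 1 (adjusted p = 0.0377 to 0.0478). Pgam1, phosphoglycerate mutase, lay within 11.82 to 12.26 on all 12 arrays and was 0.19 ± 0.11 in MGE maturation without a call. Pkm, pyruvate kinase, lay within 11.14 to 11.65 on all 12 arrays, and its 95% interval in MGE maturation ran from -0.31 to 0.23. Eno2, the neuronal enolase, was -0.68 ± 0.29 in the early and -0.50 ± 0.29 in the late lineage comparison, not called in either, and spread from 8.06 to 9.54 within CGE E18.5 alone. Without CGE E18.5 replicate 2 it was called lower in both.

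Gapdh, read by its control probe set near the end of the transcript, measured 13.21, 13.29 and 13.27 in MGE E18.5, 13.1, 13.21 and 12.92 in CGE E18.5, 13.17, 13.17 and 13.09 in MGE E14.5 and 13.14, 12.94 and 12.89 in CGE E16.5. Controls were outside the fit, so no test was made. The Gapdh probe set for that end exceeded the one for the beginning by 1.37 to 1.69 on all arrays, while the same gap for beta-actin was -0.07 to 0.08.

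Of the 3 tested genes of lactate production and export, 2 rose in MGE maturation. Ldha, the lactate dehydrogenase subunit that favours making lactate, read 10.55, 10.47 and 10.69 in MGE E18.5, 10.26, 10.13 and 9.77 in CGE E18.5, 8.91, 8.83 and 8.91 in MGE E14.5 and 10.18, 9.72 and 9.19 in CGE E16.5. The lowest 3 arrays of the 12 were those of MGE E14.5 and the highest 3 those of MGE E18.5. Ldha was 3.21-fold higher in MGE cells at E18.5 than at E14.5 (1.68 ± 0.21, adjusted p = 0.000149). The difference was called in each of the 23 other settings that tested Ldha, at 1.62 to 1.73. In CGE maturation it was 0.36 ± 0.21, with a 95% interval from -0.11 to 0.82. The difference between these changes was 1.33 ± 0.30 (adjusted p = 0.016) and was called in all 23. At the early days Ldha was lower in MGE cells, with a difference of -0.81 ± 0.21 (adjusted p = 0.0314). That call was lost in 7 of 23 settings, including leaving out CGE E16.5 replicate 1 (-0.57, adjusted p = 0.0946), CGE E16.5 replicate 2 (-0.80, adjusted p = 0.0837) or any 1 of the MGE E14.5 arrays (adjusted p = 0.0753 to 0.106). At E18.5 it was 0.52 ± 0.21 (adjusted p = 0.102), and was called higher without CGE E16.5 replicate 1 or 3.

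Ldhb, the subunit that favours turning lactate back into pyruvate, was not called. It measured 11.98, 12.17 and 12.3 in MGE E18.5, 12.32, 12.13 and 11.97 in CGE E18.5, 12.27, 12.19 and 12.19 in MGE E14.5 and 12.33, 11.99 and 11.74 in CGE E16.5. The groups overlapped throughout, and its MGE maturation difference was -0.07 ± 0.16 with a 95% interval from -0.41 to 0.28. Its 3 other probe sets gave -0.08 to -0.11.

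Slc16a1 encodes the monocarboxylate transporter MCT1, which carries lactate across the membranes of oligodendroglia and endothelium among others. Its arrays read 8.39, 8.18 and 8.64 in MGE E18.5, 7.35, 6.67 and 6.81 in CGE E18.5, 6.89, 6.68 and 7.44 in MGE E14.5 and 6.84, 7.5 and 6.87 in CGE E16.5. No other array reached any of the 3 from MGE E18.5. It was higher in MGE E18.5 by 1.4 ± 0.25 than in MGE E14.5 (adjusted p = 0.00216) and by 1.45 ± 0.25 than in CGE E18.5 (adjusted p = 0.00132). Both calls held in each of the 23 other settings that tested Slc16a1, which did not pass the stricter filter. In CGE maturation it was -0.12 ± 0.25. The lineages differed in their change by 1.52 ± 0.35 (adjusted p = 0.0189), with an adjusted p of 0.0513 without MGE E14.5 replicate 1, 0.0548 without MGE E14.5 replicate 2 and 0.054 without MGE E18.5 replicate 3. Only 6 arrays lay above the filter level, 3 of them MGE E18.5, so its lower values are near background. Computed like that of Aldoc, the bound was at least 2.24-fold for MGE maturation and at least 2.27-fold for the late lineage comparison.

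**Figure D4:**
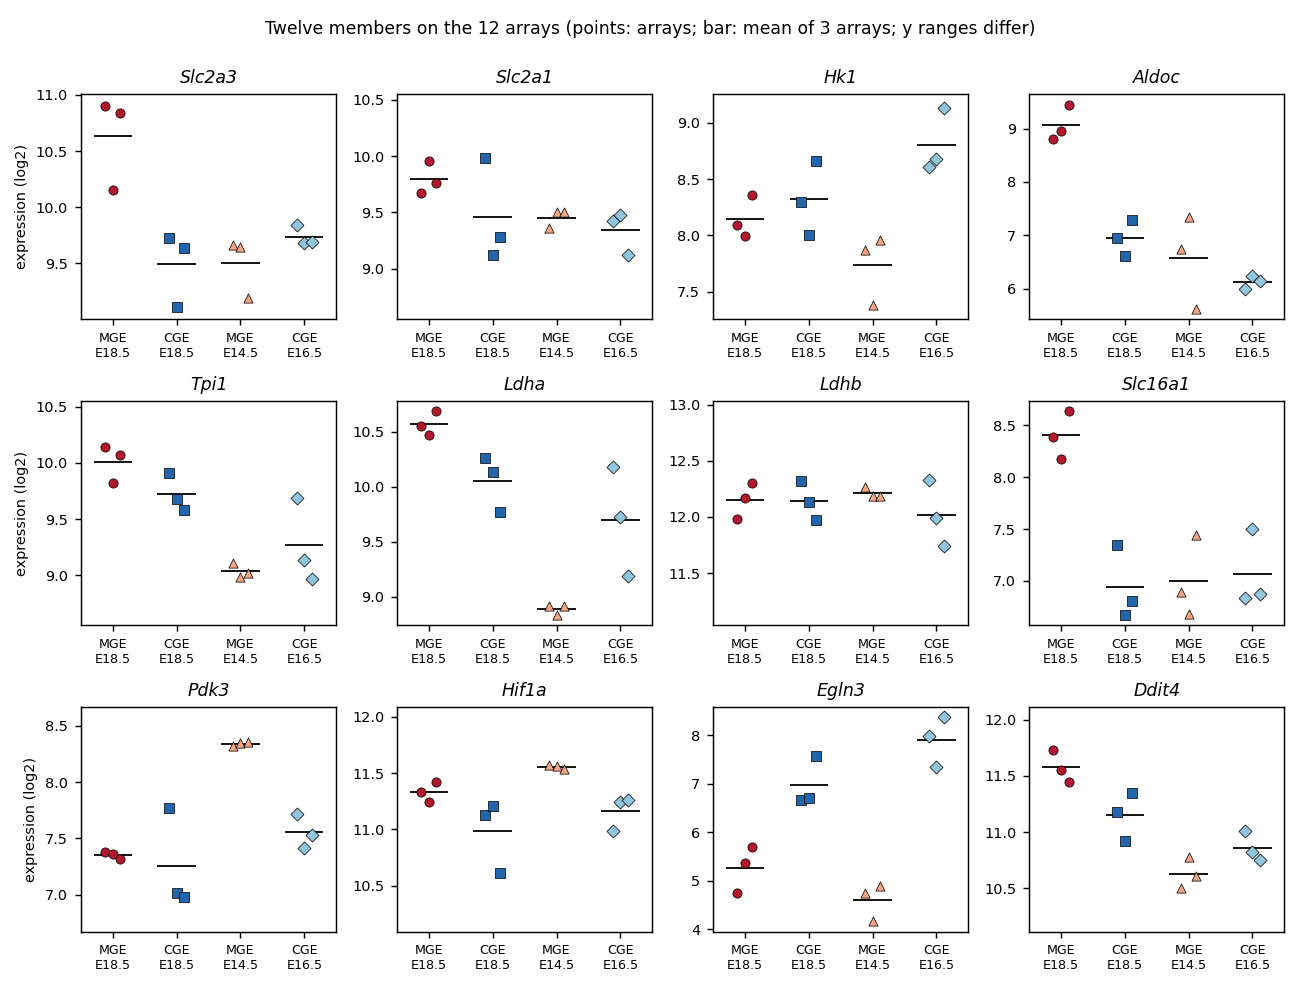
Log2 expression (y axes, ranges differ) of 12 members on each array, by group (x axes). Points are arrays and bars are means of 3. Slc2a3, Aldoc, Ldha and Slc16a1 are highest on the 3 MGE E18.5 arrays, Ldhb overlaps across groups, and Egln3 separates the CGE from the MGE groups.

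The sequences before the start sites of members that rose together in MGE maturation were inspected for the core of the hypoxia response element, the short motif that Hif1a and its partner bind. The letters ACGTG and GCGTG were searched on both strands in the 250 bases before to 50 after each start in the RefSeq table of GRCm38.p6. CACGTG, the motif of other basic helix-loop-helix factors, contains ACGTG on each strand and so counts as 2 matches. Of 8 risen members with an entry, 7 had a match in at least 1 promoter (87.5%), as had 23 of the 24 tested members that did not rise (95.8%), 70.3% of the 7171 tested genes with an entry and 46.7% of all 27025 genes in the table. By this count the share was not higher among those that rose. Counted by promoter it was 10 of 12 (83.3%) for risen and 29 of 38 (76.3%) for the other tested members. For ACGTG alone, counted by gene, it was 87.5% and 70.8%. The order thus depended on the motif and the unit, with only 8 risen genes. CACGTG was found for 7 of 32 tested members with an entry (21.9%) and for 12% of the tested genes. The stretches shown are the 250 bases before the start of 3 risen members with matches, for lactate formation, lactate transport and collagen hydroxylation, and of Tpi1, a risen member with none. Capitals mark the matches. Ldha is on the + strand at chr7:46845554-46845803, the first of its 2 promoters, Slc16a1 on the + strand at chr3:104638414-104638663, P4ha1 on the + strand at chr10:59323046-59323295 and Tpi1 on the - strand at chr6:124814159-124814408.
Ldha: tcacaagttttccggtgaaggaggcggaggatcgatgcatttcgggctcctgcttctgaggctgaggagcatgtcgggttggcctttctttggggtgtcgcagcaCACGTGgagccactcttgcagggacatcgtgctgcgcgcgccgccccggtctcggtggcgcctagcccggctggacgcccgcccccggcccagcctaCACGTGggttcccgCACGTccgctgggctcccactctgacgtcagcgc
Slc16a1: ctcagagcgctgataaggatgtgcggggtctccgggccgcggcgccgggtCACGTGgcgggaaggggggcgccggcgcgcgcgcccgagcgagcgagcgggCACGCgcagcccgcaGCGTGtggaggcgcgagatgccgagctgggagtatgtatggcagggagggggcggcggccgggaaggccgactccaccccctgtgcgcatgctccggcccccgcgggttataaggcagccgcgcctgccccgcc
P4ha1: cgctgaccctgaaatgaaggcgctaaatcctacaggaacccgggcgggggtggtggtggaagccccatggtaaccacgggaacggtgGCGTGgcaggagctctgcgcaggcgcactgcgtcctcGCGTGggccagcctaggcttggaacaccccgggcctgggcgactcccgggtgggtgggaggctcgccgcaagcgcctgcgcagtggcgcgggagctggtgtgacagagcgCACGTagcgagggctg
Tpi1: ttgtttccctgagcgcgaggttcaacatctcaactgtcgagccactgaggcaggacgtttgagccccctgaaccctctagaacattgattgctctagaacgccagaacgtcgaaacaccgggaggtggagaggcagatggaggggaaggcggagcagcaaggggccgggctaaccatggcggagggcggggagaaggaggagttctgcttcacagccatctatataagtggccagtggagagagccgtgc
These stretches hold 5 matches for Ldha, 4 for Slc16a1, 3 for P4ha1 and 0 for Tpi1, although all 4 genes rose in MGE maturation. In Ldha, 4 of the 5 come from 2 copies of CACGTG. Egln3, which did not rise, had 1 match in the 250 bases, and Bnip3, which differed by at most 0.23 in size in any pairwise comparison, had 5. A match describes the letters and is no evidence of binding.

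Control of phosphofructokinase was read by Pfkfb2 and Pfkfb3, which make and break down the small sugar that activates it. Pfkfb3, the form that responds to low oxygen, had group means of 8.20 ± 0.43 in MGE E18.5, 7.94 ± 0.23 in CGE E18.5, 8.99 ± 0.28 in MGE E14.5 and 8.44 ± 0.40 in CGE E16.5 (SD, n = 3). It fell by 0.79 ± 0.25 in MGE maturation (adjusted p = 0.0442), opposite in direction to the enzymes that rose. The call was lost in 10 of 24 settings, among them without any 1 of the MGE E14.5 arrays, MGE E18.5 replicate 2 or 3, CGE E16.5 replicate 2 or CGE E18.5 replicate 3, with values of -0.54 to -0.92 (adjusted p = 0.0512 to 0.171), and its second probe set gave -0.50 without a call. Pfkfb2, the form of heart and brain, measured 8.63, 8.62 and 8.59 in MGE E18.5, 8.69, 8.37 and 8.48 in CGE E18.5, 8.87, 8.9 and 8.37 in MGE E14.5 and 8.16, 8.72 and 9.18 in CGE E16.5. Its groups overlapped, and no difference exceeded 0.17 in size.

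Entry of pyruvate into mitochondria held 1 called member of 4, a kinase. Pdhb, the beta subunit of pyruvate dehydrogenase, measured 11.35, 11.44 and 11.34 in MGE E18.5, 11.55, 11.17 and 11.1 in CGE E18.5, 11.35, 11.21 and 11.14 in MGE E14.5 and 10.91, 11.25 and 11.14 in CGE E16.5, with overlap throughout. Pdha1, the alpha subunit, differed by at most 0.26 in size. Pdk3, a kinase that inactivates the complex, was 7.35 ± 0.03 in MGE E18.5, 7.25 ± 0.45 in CGE E18.5, 8.34 ± 0.02 in MGE E14.5 and 7.55 ± 0.16 in CGE E16.5 (SD, n = 3). It fell by 0.99 ± 0.18 in MGE maturation (adjusted p = 0.00265), a call held in each of the 23 other settings that tested it. Pdk3 did not pass the stricter filter. It was higher in MGE cells by 0.79 ± 0.18 at the early days (adjusted p = 0.0169), which was lost without any 1 of the MGE E14.5 arrays (adjusted p = 0.0518 to 0.0594) and without CGE E16.5 replicate 2 (0.72, adjusted p = 0.0659). At E18.5 the lineages differed by 0.10 ± 0.18, with CGE E18.5 replicate 1 at 7.77 against 7.01 and 6.98 for its replicates. Leaving that array out, Pdk3 was called higher in MGE E18.5 than in CGE E18.5. Pdk1, the family member induced by hypoxia, was not called in any of these comparisons, at -0.12 to -0.33.

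In oxygen sensing, Egln3 was called in both lineage comparisons. Egln3, the prolyl hydroxylase that is itself induced by hypoxia, read 4.75, 5.36 and 5.7 in MGE E18.5 and 6.66, 6.7 and 7.56 in CGE E18.5, and 4.75, 4.16 and 4.89 in MGE E14.5 and 7.97, 7.34 and 8.37 in CGE E16.5. All 6 CGE arrays lay above all 6 MGE arrays. Only 4 arrays were above the filter level, 3 of CGE E16.5 and 1 of CGE E18.5, so Egln3 passed the filter through the group in which it was high, the MGE values are near background, and it did not pass the stricter filter. With MGE arrays raised to their filter level, Egln3 was at least 1.7-fold lower in MGE cells at the early days (measured -3.29 ± 0.33, adjusted p = 6.03e-05). At E18.5 (measured -1.7 ± 0.33, adjusted p = 0.00318) the CGE mean of 6.97 was itself under the filter level, so no fold is given. Both calls held in each of the 23 other settings that tested it. In maturation it was 0.67 ± 0.33 in MGE and -0.92 ± 0.33 in CGE cells, neither called. The difference between them, 1.59 ± 0.47, missed the threshold (adjusted p = 0.0613), and was called without MGE E18.5 replicate 1 (1.85), CGE E18.5 replicate 3 (1.89) or CGE E16.5 replicate 2 (1.87). A second Egln3 probe set gave -3.96 and -2.31 for the lineage differences, and both its CGE maturation difference of -1.37 and the change of 1.65 were called.

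The other members of oxygen sensing gave no call. Hif1a measured 11.33, 11.24 and 11.42 in MGE E18.5, 11.13, 11.21 and 10.61 in CGE E18.5, 11.57, 11.56 and 11.54 in MGE E14.5 and 10.99, 11.24 and 11.26 in CGE E16.5. Its MGE arrays lay above the CGE arrays of both comparisons, by 0.35 ± 0.15 at E18.5 (adjusted p = 0.124) and 0.39 ± 0.15 at the early days (adjusted p = 0.143), without a call, while 2 other probe sets were called at the early days with 0.43 and 0.49. The main one was called there without CGE E18.5 replicate 3. Egln1, the main hydroxylase at normal oxygen, was 0.26 ± 0.14 and 0.15 ± 0.14 in the same comparisons, with no call.

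Among the hypoxia-induced members, 3 of 8 tested rose in MGE maturation (37.5%, beside 11.4% of all genes). In CGE maturation 0 of 8 were called. There 7 of the 8 differences lay above 0, and the median of all genes was -0.07. Ddit4, which restrains growth signalling through mTOR, had group means of 11.58 ± 0.14 in MGE E18.5, 11.15 ± 0.22 in CGE E18.5, 10.63 ± 0.14 in MGE E14.5 and 10.86 ± 0.13 in CGE E16.5 (SD, n = 3). It rose by 0.95 ± 0.14 in MGE maturation (adjusted p = 0.00054), a call held in each of 24 other settings. Its late lineage difference of 0.43 ± 0.14 (adjusted p = 0.0452) was lost in 17 of 24 settings, among them without any 1 array of MGE E18.5 or MGE E14.5, CGE E18.5 replicate 1 or 2, or CGE E16.5 replicate 2 or 3 (0.31 to 0.49, adjusted p = 0.0506 to 0.153). P4ha1, a collagen prolyl hydroxylase, rose by 0.94 ± 0.22 in MGE maturation (adjusted p = 0.0106), also in each of 24 other settings. A second, dimmer P4ha1 probe set was 1.22 in MGE maturation, 1.15 in the late lineage comparison and 1.09 in the change between lineages, all called, where the main one gave 0.36 ± 0.22 and 0.25 ± 0.31 for the last 2. Ankrd37, an ankyrin repeat protein induced by Hif1a, went the same way in both lineages, at 0.68 ± 0.21 in MGE (adjusted p = 0.0426) and 0.73 ± 0.21 in CGE maturation, and the changes differed by -0.05 ± 0.30. The MGE call was lost in 11 of 23 settings, among them without any 1 array of MGE E18.5, MGE E14.5 or CGE E16.5 (0.57 to 0.75, adjusted p = 0.0522 to 0.138).

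The remaining hypoxia-induced members gave no call. Mxi1, a repressor of Myc target genes, measured 10.65, 11.07 and 10.9 in MGE E18.5, 11.17, 11.29 and 11.43 in CGE E18.5, 10.71, 10.84 and 11.15 in MGE E14.5 and 11.27, 11.07 and 11.23 in CGE E16.5, and was -0.42 ± 0.15 in the late lineage comparison (adjusted p = 0.0605). It was called there without MGE E18.5 replicate 2 (-0.52, adjusted p = 0.0437) and without MGE E14.5 replicate 3 (-0.42, adjusted p = 0.0453). Vegfa, the vascular growth factor, was 0.52 ± 0.27 in MGE and 0.53 ± 0.27 in CGE maturation, but was above the filter level on only 3 arrays, and MGE E18.5 replicate 1 read 8.03 where its replicates read 7.03 and 6.94. Bnip3, a mitochondrial protein of mitophagy, was 0.01 ± 0.20 and -0.05 ± 0.20. The histone demethylase Kdm3a was -0.27 ± 0.14 in MGE and 0.25 ± 0.14 in CGE maturation, and the mitochondrial protein Higd1a 0.20 ± 0.24 and 0.35 ± 0.24. The 3 shared Bnip3l and Bnip3l-ps probe sets had group means of 10.39 to 10.82 in MGE E18.5, 10.73 to 11.18 in CGE E18.5, 10.57 to 10.92 in MGE E14.5 and 10.71 to 11.33 in CGE E16.5, and were not tested.

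Set by comparison, MGE cells at E18.5 exceeded CGE cells of the same day in 5 members, 15.2% beside 13% of all genes, and were lower in 1, Egln3, 3.03% beside 9.85%. The 5 were Aldoc, Slc16a1, Slc2a3, Aldoa and Ddit4, and all 5 were also among the 9 that rose in MGE maturation. Both comparisons use the same 3 MGE E18.5 arrays. Without CGE E18.5 replicate 1 the count was 8, with Slc2a1, Pgk1, Pdk3 and Ankrd37 added and Ddit4 lost. It was 7 without CGE E16.5 replicate 1, with Pgk1 and Ldha added. It was 3, namely Slc2a3, Aldoc and Slc16a1, without MGE E18.5 replicate 3, CGE E18.5 replicate 2 or MGE E14.5 replicate 1. MGE cells at E14.5 exceeded CGE cells at E16.5 in 1 member, Pdk3 (3.03% beside 4.16% of all genes), and were lower in 3, Egln3, Hk1 and Ldha (9.09% beside 5.9%). Hk1 and Egln3 remained without each array in turn, as the only lower members without any 1 of the MGE E14.5 arrays, CGE E16.5 replicate 1 or CGE E16.5 replicate 2.

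Other genes of these pathways, from lists that did not include the members, were called in both directions. Of 9 further tested genes of the Hif machinery, 3 were higher and 1 lower in MGE E18.5 than in CGE E18.5, beside 13% and 9.85% of all genes. Epas1, the Hif2 alpha subunit, measured 8.02, 8.04 and 7.7 in MGE E18.5, 5.06, 5.05 and 6.93 in CGE E18.5, 5.28, 5.25 and 5.37 in MGE E14.5 and 5.36, 5.45 and 4.79 in CGE E16.5. It was higher in MGE E18.5 by 2.24 ± 0.40 than in CGE E18.5 (adjusted p = 0.00172) and by 2.62 ± 0.40 than in MGE E14.5 (adjusted p = 0.00072), with CGE E18.5 replicate 3 standing well above its replicates. Epas1 was above the filter level on the 3 MGE E18.5 arrays alone and passed the filter through them, so the other values are near background. The bounds were at least 1.72-fold for the first difference and at least 1.73-fold for the second. Of 22 other hypoxia-induced genes, 3 rose (13.6%, beside 11.4% of all genes) and 4 fell (18.2%, beside 9.77%) in MGE maturation. None fell by more than 0.96. Among those that fell, Pfkfb4 did so by 0.85 (adjusted p = 0.0158), with no MGE E18.5 array above the filter level. Bhlhe40, a repressor of the circadian clock and a target of Hif1a, read 7.45, 7.47 and 7.6 in MGE E18.5, against 5.41, 5.57 and 5.37 in MGE E14.5, and rose by 2.06 ± 0.14 (adjusted p = 8.16e-07). Hmox1, the haem oxygenase, rose by 1.38 ± 0.22 (adjusted p = 0.00112), and Plod2, a lysyl hydroxylase of collagen, by 1.24 ± 0.27 (adjusted p = 0.0066). All 3 were above the filter level on the MGE E18.5 arrays alone, so they passed the filter through the group in which they were high, and their other values are near background. The bounds for MGE maturation were at least 1.3-fold for Bhlhe40, 1.64-fold for Hmox1 and 1.38-fold for Plod2. In CGE maturation 3 of these 22 genes rose (13.6%, beside 4.49% of all genes) and 0 fell (beside 6.37%). Plod2 was among those that rose there, by 0.96 (adjusted p = 0.0395), with no CGE array above the filter level.

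Others of that list differed between the lineages. Rora, an orphan nuclear receptor, was higher in MGE cells by 1.54 ± 0.24 at E18.5 (adjusted p = 0.000736). At the early days it was higher by 2.52 ± 0.24 (adjusted p = 4.17e-05). Of the 6 CGE arrays 1 was above the filter level, and the bounds were at least 2.03-fold and 4.25-fold. Within MGE cells Rora read 8.21, 8.25 and 8.24 at E18.5, below the 9.22, 9.08 and 9.3 at E14.5. Adm, the vasodilator peptide adrenomedullin, read 12, 11.68 and 10.16 in MGE E18.5, 6.58, 9.87 and 10.74 in CGE E18.5, 10.25, 11.03 and 8.97 in MGE E14.5 and 7.21, 5.01 and 4.51 in CGE E16.5. It was called higher in MGE cells at the early days, by 4.5 ± 1.02 (adjusted p = 0.0147), and rose by 3.49 ± 1.02 in CGE maturation (adjusted p = 0.0486), with an SE larger than that of any member. Of its CGE E16.5 arrays 1 was above the filter level. The bounds on the group means were 7.69-fold at the early days and 3.8-fold in CGE maturation. They leave out the spread between arrays, which was wide for Adm, and in CGE maturation the arrays of the 2 groups overlapped.

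Of 9 other genes of glycolysis and glycogen, 3 were higher (33.3%, beside 13% of all genes) and 2 lower (22.2%, beside 9.85%) in MGE E18.5 than in CGE E18.5. In MGE maturation 3 fell (33.3%, beside 9.77%). Pfkfb4 is in this list and in that of hypoxia-induced genes, so its fall is counted in both. Tigar, a phosphatase that slows glycolysis, read 7.22, 6.72 and 7.55 in MGE E18.5, 8.85, 9.04 and 9.56 in CGE E18.5, 8.35, 8.41 and 8.94 in MGE E14.5 and 9.27, 9.09 and 8.87 in CGE E16.5. It fell by 1.4 ± 0.25 in MGE maturation (adjusted p = 0.00184), and its change differed from that of CGE cells by -1.48 ± 0.35 (adjusted p = 0.0198). Pgm2 and Pgm1, phosphoglucomutases that link glucose to glycogen, were higher in MGE E18.5 than in CGE E18.5 by 1.42 ± 0.15 (adjusted p = 3.71e-05) and 1.2 ± 0.36 (adjusted p = 0.0303). No CGE E18.5 array was above the filter level for Pgm1, which gives a bound of at least 1.68-fold. Among 6 genes of the pentose phosphate pathway, 2 rose in MGE maturation (33.3%, beside 11.4% of all genes). In the late lineage comparison 1 was higher (16.7%, beside 13%), and in CGE maturation 1 was lower (16.7%, beside 6.37%). The change between lineages was called higher for 1 (16.7%, beside 6.77%). Among 8 other genes of pyruvate and lactate metabolism 0 were called by limma in any of the 4 pairwise comparisons. At an unadjusted p under 0.05, 1 passed in the late and 1 in the early lineage comparison, 0 in MGE and 2 in CGE maturation.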

How the data were processed

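Fluorescent cells of 4 groups, with 3 Affymetrix Mouse430_2 arrays each, were analysed from the table of processed values. The log2 values were deposited by the authors, whose methods describe background correction and normalization in Bioconductor, while the submitters' processing notes name MAS5 without a version, so that the exact normalization is not settled. Array medians were 7.75 to 7.81. Of 27094 probe sets, those with 1 gene symbol that were above the 40th percentile of their array (7.1 to 7.17) on at least 3 of 12 arrays were kept (16008), with controls left out, and each gene was read by the kept probe set of highest mean, which gave 8795 genes. This filter favours genes that are high in at least 1 group, and values near background understate differences. One mean per group was fitted over all 12 arrays in limma 3.58.1 (R 4.3.3) with moderated variances (8 residual and 3.6 prior degrees of freedom) and Benjamini-Hochberg adjustment over all genes, and the threshold was an adjusted p under 0.05. The fit was tested on simulated data. Fold values are powers of the log2 difference. Where a called gene was near background in the dimmer group, a fold is given as a lower bound on the difference of the group means. In these means each dim array stood at its own value or its filter level, whichever was higher. The bounds leave out the spread between arrays, so they are not confidence limits. The files used here hold no detection calls. With 3 arrays per group, precision is set by their number.

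The members and lists were chosen with earlier results of these data known. Values of every array are given for members called with a difference of at least 1 in size in at least 1 of the 4 pairwise comparisons and for the highest member of each role, and genes of the other pathway lists are named where called with such a difference. Marker lists were summed on the linear scale. Promoters were matched by symbol to a RefSeq table of GRCm38.p6. The 24 alternatives changed the normalization, filter, probe set per gene, variance model, arrays in the fit, replicate block and replicates, and left out each array in turn.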

Additional observations from a re-analysis of the deposited data

Results flagged for a closer look

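For 3 members the change with age differed between the lineages by a direct test in limma, MGE maturation minus CGE maturation. The MGE change covers E14.5 to E18.5 and the CGE change E16.5 to E18.5, so lineage, reporter and span cannot be told apart. Slc2a3 differed by 1.37 on the log2 scale (adjusted p = 0.0175), with 1.13 in MGE and -0.24 in CGE maturation. Ldha differed by 1.33 (adjusted p = 0.016), with 1.68 in MGE and 0.36 in CGE maturation. Slc16a1 differed by 1.52 (adjusted p = 0.0189), with 1.4 in MGE and -0.12 in CGE maturation. In each of these genes all 3 MGE E18.5 arrays lay above all 3 MGE E14.5 arrays, while the CGE arrays of the days overlapped.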

How the results depend on the processing

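Of 24 called member differences, 15 kept their call in each alternative that tested them, and 0 reversed. Of 10 uncalled differences with an adjusted p under 0.1, all 10 were called in at least 1 alternative. In the early lineage comparison 1 member was higher and 3 lower. The higher count was 0 with the stricter filter and with MGE E14.5 replicates 1 and 2 averaged, 2 with the mean of the probe sets of a gene and with only plain-suffix probe sets, and 4 with array weights, and the lower count was 1 with plain-suffix probe sets. In the late lineage comparison 5 were higher and 1 lower. The higher count was 2 with plain-suffix probe sets and 3 with only the groups compared, and the lower count was 0 with the stricter filter and 2 with the mean of the probe sets or an intensity trend. In MGE maturation 9 were higher and 2 lower. The higher count was 4 with plain-suffix probe sets, where 22 members were tested, and 12 with array weights, which added Slc2a1, Pgam1 and Vegfa, and the lower count was 1 with quantile normalization, the stricter filter or the averaged replicates. In CGE maturation 0 were called. With the mean of the probe sets 1 was higher and 1 lower, and with plain-suffix probe sets 1 was higher. The change of the lineage difference was called higher for 3, for 5 with the mean of the probe sets, 1 with plain-suffix probe sets and 6 with an intensity trend. Apart from the number of members tested, the causes were not tested.

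With the replicate block, 1 member was lower in MGE maturation, 1 was higher and 2 were lower in CGE maturation, and 5 were higher in the change of the lineage difference. Deviations of same-numbered arrays correlated at -0.17 to 0.28 (4 of 18 pairs over 0.1) and of others at -0.23 to 0.30 (5 of 36). Over all groups together these ranges show no clear pairing by replicate number. Between MGE E14.5 and CGE E16.5 same numbers gave 0.07, 0.19 and 0.28, and other numbers -0.23 to 0.13. Pairing between particular groups is therefore not excluded.

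Leaving out each array in turn gave 0 to 2 higher and 2 to 4 lower in the early lineage comparison, 3 to 8 higher and 1 to 3 lower in the late one, 7 to 9 higher and 1 to 2 lower in MGE maturation, 0 to 2 higher and 0 to 1 lower in CGE maturation, and 1 to 6 higher in the change of the lineage difference. MGE E14.5 replicates 1 and 2 were closer to each other than other replicate pairs, with an SD of their differences of 0.231 against 0.375 to 0.518. Of the 33 tested members, 7 were near background on some arrays.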
